A study of Mus musculus with 24 samples.

Results

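The transcripts described here encode 10 regulators of mitochondrial biogenesis that are linked to exercise, and they were chosen by symbol from the 55416 genes counted in mouse gastrocnemius muscle. They are the coactivators Ppargc1a, Ppargc1b and Perm1, the nuclear receptors Esrra and Esrrg, the transcription factors Nrf1 and Tfam, the AMP-activated protein kinase (AMPK) subunits Prkaa2 and Prkag3, and the deacetylase Sirt3. All 10 passed the filter on low counts that left 16408 genes for testing. RNA was sequenced from 24 mice in 4 groups of 6, sham or SMC of either sex. The SMC mice were housed for 8 weeks in the small mouse cage, an acrylic box that restricts movement, and sham mice stayed ambulatory. All were of the strain labelled C56BL6J, written C57BL/6J in the study's methods, bought at 8 weeks of age, and the labels name no transgene or drug in any group. The labels give the tissue as skeletal muscle, and each library is 1 mouse with replicates numbered 1 to 24 over the whole series. The question was whether this long restriction of movement changed the transcripts of the genes that training is known to engage.

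In muscle, contraction activates AMPK and raises the activity of PGC-1α, which has no DNA binding of its own and works through nuclear receptors such as the estrogen-related receptors (ERR) and through NRF-1. These factors switch on nuclear genes of oxidative phosphorylation, and with them TFAM, which enters mitochondria and binds, packages and transcribes their DNA. Oxidative fibers hold more of this machinery than glycolytic ones. Much of the control acts on the proteins, through phosphorylation, deacetylation and movement into the nucleus, which RNA counts do not measure.

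In the GENCODE M21 annotation (GRCm38) the coactivator genes are Ppargc1a (ENSMUSG00000029167, chr5:51454250-51567726, minus strand), Ppargc1b (ENSMUSG00000033871, minus strand) and Perm1 (ENSMUSG00000078486, chr4:156215868-156221307, plus strand). The receptor genes are Esrra (ENSMUSG00000024955, chr19:6910977-6921813, minus strand) and Esrrg (ENSMUSG00000026610, chr1:187608791-188214885, plus strand). Nrf1 (ENSMUSG00000058440) lies at chr6:30047988-30153458 on the plus strand, and Tfam (ENSMUSG00000003923) at chr10:71225464-71238280 on the minus strand. Prkaa2 (ENSMUSG00000028518, chr4:105029874-105109890), Prkag3 (ENSMUSG00000006542, chr1:74738922-74749221) and Sirt3 (ENSMUSG00000025486, chr7:140863666-140882309) are all on the minus strand. Exons of Esrra overlap those of Trmt112 on the other strand and of Mir6990 on the same strand, and exons of Sirt3 overlap those of Ric8a and Psmd13 on the other strand. Whether the counting used strand is not given in the sources used here, so reads of these neighbors cannot be told apart from those of Esrra and Sirt3. The microRNA Mir378a lies in an intron of Ppargc1b and shares no exon with it.

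Promoter windows from RefSeq (GRCm38.p6) run from 250 bases before to 50 bases after the annotated start, and 9 of the 10 genes were matched and read. They were searched on both strands for the ERR half-site AAGGTCA, the NRF1 site GCGCANGCG, the GABP (ETS) site CCGGAAG and the cAMP response element TGACGTCA. Of 32851 promoter windows of the same length, 4.72% held the ERR half-site, 6.25% the NRF1 site, 8.86% the GABP site and 1.79% the cAMP response element. The windows of Perm1, Esrra and Tfam are printed because Perm1 and Esrra varied together most closely of all pairs described here and Tfam is the target through which the nuclear factors reach mitochondrial DNA. Capitals mark the only matches in them, which are the ERR half-site on the reverse strand 202 bases before the start of Perm1, the NRF1 site 141 bases before the start of Esrra, and the GABP site 47 bases before the start of Tfam. The starts here are those of RefSeq. In GENCODE M21 the Tfam gene begins upstream of that start, at 71238280, so the GABP site lies inside it. A match describes the letters and does not show binding.
Perm1, chr4:156215677-156215976, plus strand: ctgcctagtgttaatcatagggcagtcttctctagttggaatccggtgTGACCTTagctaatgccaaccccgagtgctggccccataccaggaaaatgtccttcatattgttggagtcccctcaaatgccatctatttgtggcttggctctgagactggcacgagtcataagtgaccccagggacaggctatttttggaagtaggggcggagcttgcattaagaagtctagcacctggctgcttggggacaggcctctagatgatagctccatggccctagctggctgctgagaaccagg
Esrra, chr19:6921759-6922058, minus strand: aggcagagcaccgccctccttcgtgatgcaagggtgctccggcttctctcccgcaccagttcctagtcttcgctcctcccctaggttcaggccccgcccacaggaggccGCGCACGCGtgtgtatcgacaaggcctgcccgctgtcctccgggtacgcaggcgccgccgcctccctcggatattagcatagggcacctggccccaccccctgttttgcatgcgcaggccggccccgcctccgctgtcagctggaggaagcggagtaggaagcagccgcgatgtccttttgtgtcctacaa
Tfam, chr10:71237995-71238294, minus strand: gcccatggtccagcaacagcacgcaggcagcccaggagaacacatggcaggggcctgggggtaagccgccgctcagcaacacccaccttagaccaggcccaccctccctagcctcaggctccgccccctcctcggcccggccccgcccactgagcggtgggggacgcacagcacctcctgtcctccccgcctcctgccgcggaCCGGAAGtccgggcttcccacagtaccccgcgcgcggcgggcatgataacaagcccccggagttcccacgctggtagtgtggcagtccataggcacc
Sirt3 held the GABP site 85 bases before the start, on the reverse strand, in 1 of 2 windows. The windows of Ppargc1a, Esrrg, Nrf1, Prkaa2 and Prkag3 held none of these letters.

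Total counts per library ranged from 23026627 to 36880413. The labels do not mark a batch. A slow fiber score, the mean log2 CPM (read counts scaled to library size) over 10 genes of slow-twitch fibers such as Myh7, Tnni1 and Myl2, was 1.96 in male sham replicate 4 and 1.67 in female sham replicate 7, against 5.42 to 8.08 in the other 22 mice. The tissue label was checked against the fast fiber markers, whose summed level was between 67387 and 162694 CPM in every library. Of 58 marker genes of muscle fibers, adipocytes, endothelium, macrophages, fibroblasts and tendon, red blood cells and Schwann cells, 57 were tested and 0 were called by edgeR in any of the 5 comparisons, with 7 at an unadjusted p under 0.05 in a comparison of SMC with sham. In males 6 of 7 adipocyte markers were at a log2 fold change below 0 (median -0.24) and 5 of 5 Schwann cell markers above it (median 0.37). Red blood cell markers (5 of 5, median -0.43) and macrophage markers (6 of 6, median -0.19) were also below 0 in males. Summed adipocyte markers lay between 69.0 and 298 CPM over the 4 groups, with Ucp1 below the filter. In whole muscle, fewer cells of a type and less RNA per cell cannot be told apart.

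Levels between genes are compared per length. Averaged over the 24 mice, Perm1 was highest at 58.9 ± 19.1 RPKM (CPM per kilobase of exon; SD, n = 24), followed by Prkaa2 at 49.2 ± 5.68 and Prkag3 at 30.6 ± 10.9. Esrra (13.8 ± 2.62 RPKM) and Ppargc1a (12.3 ± 7.02 RPKM) came next and differed by less than their spread. Ppargc1b (7.73 ± 3.12 RPKM) and Esrrg (7.61 ± 3.32 RPKM) also lay within each other's spread. Tfam was at 5.32 ± 0.777 RPKM, Sirt3 at 1.598 ± 0.349 and Nrf1 at 1.35 ± 0.107. Both kinase subunits and the coactivator Perm1 thus headed the order, and NRF-1, a factor shared by most cell types, closed it. Perm1 and Prkaa2 differed by less than the SD of Perm1, and Sirt3 and Nrf1 by less than the SD of Sirt3. Before division by length, the mean CPM of Nrf1 was above that of Sirt3 in each group.

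SMC against sham gave no call among these regulators. In males 0 of the 10 passed an FDR under 0.05 in edgeR's quasi-likelihood test, where 0% of all tested genes passed, and 1 of 10 (Prkag3) had an unadjusted p under 0.05, against 11% of genes. In females 0 of 10 passed where 0.341% of genes did, and 1 of 10 (Tfam) had an unadjusted p under 0.05, against 12.5%. Averaged over the sexes, with 12 mice on each side, 0 of 10 passed where 2.36% of genes did, and 2 of 10 (Tfam and Prkag3) had an unadjusted p under 0.05, against 17.5%. The response did not differ detectably between the sexes, with 0 of 10 called against 0% of genes and 0 of 10 at an unadjusted p under 0.05 against 5.13%. Sham males against sham females gave 0 of 10 calls against 1.97%, and 0 of 10 at an unadjusted p under 0.05 against 15.5%. DESeq2 and limma voom with sample weights also called 0 of the 10 in each of the 5 comparisons. With the slow fiber score as a covariate in edgeR, 6 of 10 had an unadjusted p under 0.05 in females, against 2743 of 16408 genes. In males 1 of 10 did, against 2264 genes, and in the average 5 of 10, against 3491 genes. In that fit 0 of 10 were called in males, 0 in females and 1 in the average. The SMC and sham mice overlapped for every one of the 10 genes, in males (0.902% of all genes did not overlap) and in females (1.03%), as did sham males and sham females (1.13%). The median log2 fold change of the 10 was 0.08 in males, -0.02 in females and 0.02 averaged, and that of all tested genes was 0.00 in males, -0.01 in females and -0.01 averaged.

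**Figure D1:**
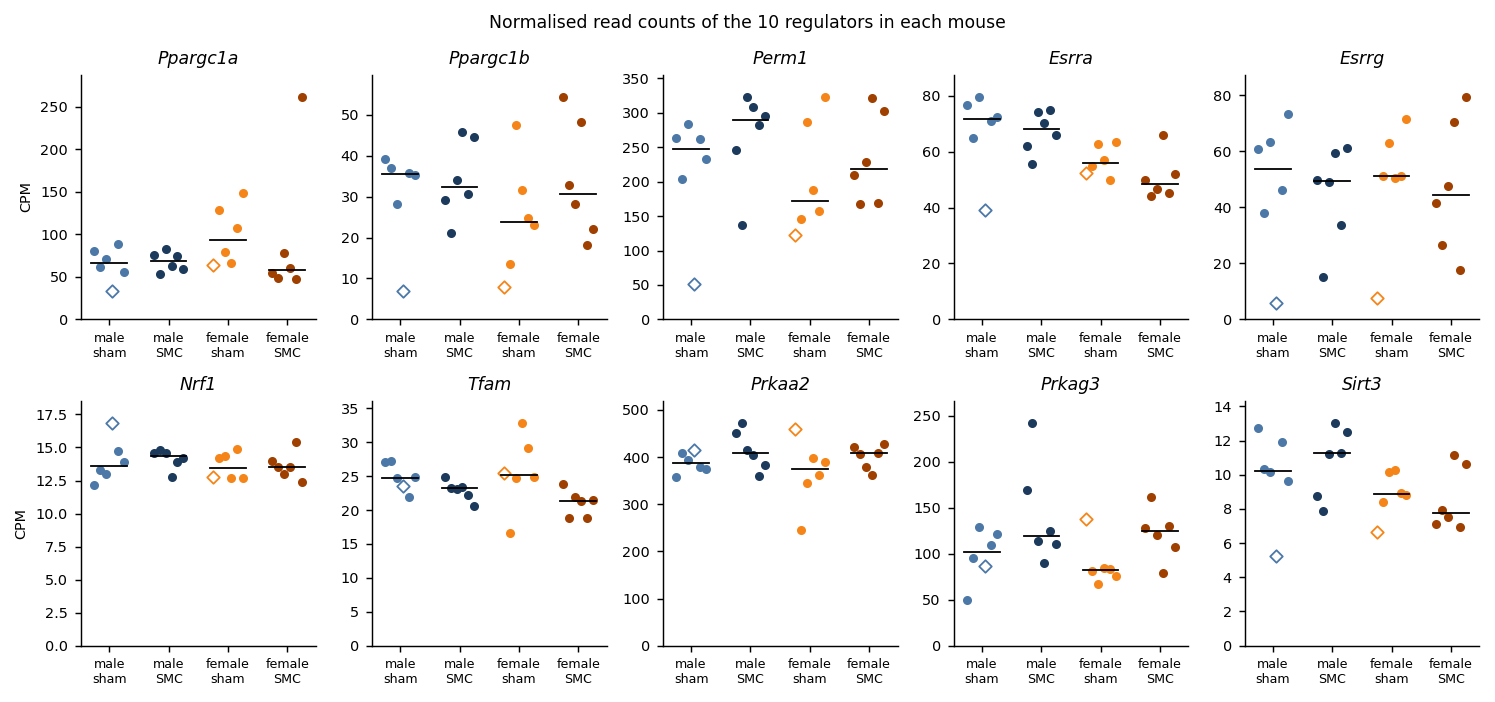
Normalized read counts (CPM, vertical axis from 0) of the 10 regulators in each of the 24 mice, by group. Each point is 1 mouse, lines are group medians and open diamonds are male sham replicate 4 and female sham replicate 7. Sham and SMC points overlap in every panel, and the highest Ppargc1a value (262 CPM) is that of female SMC replicate 24.

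**Figure D2:**
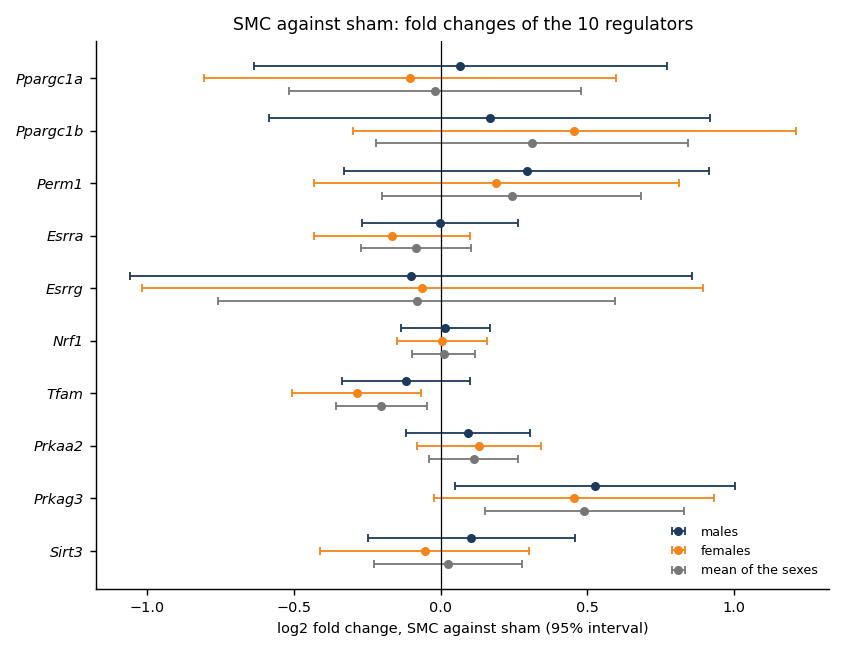
Log2 fold change of SMC against sham for the 10 regulators in males, in females and averaged over the sexes (horizontal axis), with 95% intervals from the edgeR fit as bars. The averaged intervals of Tfam (-0.36 to -0.05) and Prkag3 (0.15 to 0.83) lie on 1 side of 0, and neither gene passed the FDR over all genes.

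Ppargc1a encodes PGC-1α, the coactivator at the center of the training response. It ranged in male sham from 33.5 to 88.9 CPM (median 66.0) and in male SMC from 53.7 to 82.9 CPM (median 68.6). In female sham it ranged from 64.1 to 149 CPM (median 93.5), and in female SMC from 48.1 to 262 CPM (median 57.8). Of the 6 SMC females, 5 lay at or below 78.2 CPM, and the other, replicate 24, was the highest of all 24 mice. The log2 fold change with SMC was 0.07 in males (SE 0.34, 95% interval -0.64 to 0.77, edgeR FDR 0.969) and -0.10 in females (SE 0.34, interval -0.81 to 0.60, edgeR FDR 0.939). Without female SMC replicate 24 the value in females was -0.77 (SE 0.23, unadjusted p = 0.00276, edgeR FDR 0.148), which also did not pass. The size in females thus rested on 1 mouse, in which Esrrg (79.4 CPM) was also the highest of its group and the slow fiber score (8.08) the highest of all.

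Ppargc1b encodes PGC-1β, the close relative of PGC-1α. Its level was 6.83 to 39.2 CPM in male sham (median 35.5), 21.1 to 45.9 in male SMC (median 32.3), 8.04 to 47.5 in female sham (median 23.9) and 18.2 to 54.4 in female SMC (median 30.6). The lowest mouse of each sham group was male sham replicate 4 and female sham replicate 7, and the SMC values lay inside or just above the sham range. Its log2 fold change was 0.17 in males (SE 0.36, edgeR FDR 0.915) and 0.46 in females (SE 0.37, interval -0.30 to 1.21, edgeR FDR 0.668). In males it was -0.05 without both low libraries. In females it was 0.28 without them, 0.13 with the slow fiber score as a covariate and 0.75 without female sham replicate 9.

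Perm1 encodes a muscle protein induced by PGC-1 and ERR that acts back on their target genes. Its level was 51.6 to 284 CPM in male sham (median 248), 138 to 323 in male SMC (median 289), 123 to 323 in female sham (median 173) and 167 to 321 in female SMC (median 219). SMC medians were above sham medians in both sexes, and the groups overlapped. In females every SMC value lay inside the sham range. In males SMC replicates 15, 16 and 18 (323, 308 and 295 CPM) lay above every sham mouse. Its log2 fold change was 0.29 in males (SE 0.30, interval -0.33 to 0.92, edgeR FDR 0.786) and 0.19 in females (SE 0.30, interval -0.43 to 0.81, edgeR FDR 0.855). In males it was 0.081 without both low libraries and 0.43 without male SMC replicate 14.

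Esrra encodes the receptor ERRα, whose family recognizes half-sites such as the one searched for above. The level of Esrra was 39.1 to 79.6 CPM in male sham (median 71.6), 55.5 to 74.8 in male SMC (median 68.1), 50.01 to 63.5 in female sham (median 55.9) and 44.2 to 65.9 in female SMC (median 48.3). Male groups had the higher medians, and male sham replicate 4 was the lowest mouse of the series. SMC left a log2 fold change of 0.00 in males (SE 0.13, interval -0.27 to 0.26, edgeR FDR 0.996) and -0.16 in females (SE 0.13, interval -0.43 to 0.10, edgeR FDR 0.654). With the slow fiber score as a covariate these values were -0.05 (SE 0.10, edgeR FDR 0.865) and -0.29 (SE 0.10, edgeR FDR 0.141). Sham males were above sham females by 0.25 on the log2 scale (SE 0.13, edgeR FDR 0.363). Without male sham replicate 4 that difference was 0.37 (SE 0.10, edgeR FDR 0.0432), and without both low libraries 0.35 (edgeR FDR 0.0669), so the call depended on which libraries entered.

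Esrrg, which encodes the ERRγ of oxidative muscle, was the most variable of the 10. Its level was 6.0 to 73.1 CPM in male sham (median 53.6), 15.1 to 61.0 in male SMC (median 49.4), 7.70 to 71.4 in female sham (median 51.1) and 17.7 to 79.4 in female SMC (median 44.5). The group medians were close, and the lowest values were again male sham replicate 4 and female sham replicate 7. The log2 fold change was -0.10 in males (SE 0.46, interval -1.06 to 0.86, edgeR FDR 0.964) and -0.06 in females (SE 0.46, interval -1.02 to 0.90, edgeR FDR 0.975). The interval in males runs from 0.480-fold to 1.81-fold. With the slow fiber score as a covariate the averaged value was -0.46 (SE 0.16, edgeR FDR 0.0929). In that fit it was -0.31 in males (SE 0.22, edgeR FDR 0.572) and -0.62 in females (SE 0.23, edgeR FDR 0.165).

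NRF-1, encoded by Nrf1, drives nuclear genes of the respiratory chain. Its transcript ranged from 12.1 to 16.8 CPM over all 24 mice, with medians of 13.6 in male sham, 14.4 in male SMC, 13.5 in female sham and 13.5 in female SMC. It hardly varied between groups or mice. Its averaged fold of SMC against sham was 1.01, with a 95% interval from 0.935 to 1.09, the narrowest of the 10.

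The level of Tfam was 21.9 to 27.2 CPM in male sham (median 24.8), 20.6 to 24.9 in male SMC (median 23.2), 16.6 to 32.8 in female sham (median 25.1) and 18.8 to 23.8 in female SMC (median 21.4). Of the 6 sham females, only replicate 8 (16.6 CPM) lay below every SMC female, and the other 5 were above every one of them. The log2 fold change was -0.12 in males (SE 0.11, interval -0.34 to 0.10, edgeR FDR 0.746) and -0.29 in females (SE 0.11, interval -0.51 to -0.07, unadjusted p = 0.0127, edgeR FDR 0.237). Averaged over the sexes it was -0.20 (SE 0.08, unadjusted p = 0.0127, edgeR FDR 0.152), a fold of 0.869. It passed the FDR without female sham replicate 8 (-0.25, SE 0.06, edgeR FDR 0.0255) and with library totals in place of TMM factors (-0.33, edgeR FDR 0.0138), a scaling under which the median of all genes was -0.14.

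Prkaa2 encodes the catalytic α2 subunit of AMPK, the main catalytic form in muscle. Its level was 358 to 415 CPM in male sham (median 387), 360 to 472 in male SMC (median 409), 244 to 459 in female sham (median 375) and 363 to 427 in female SMC (median 408). The SMC medians were slightly above the sham medians and inside the range of the sham mice. In males SMC replicates 13 and 14 (452 and 472 CPM) lay above every sham mouse, and in females every SMC value lay inside the sham range. The averaged log2 fold change was 0.11 (SE 0.07, interval -0.04 to 0.26, edgeR FDR 0.450).

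Prkag3 encodes the γ3 regulatory subunit of AMPK, which is found mainly in fast glycolytic fibers. Its level was 49.4 to 129 CPM in male sham (median 102), 90.4 to 242 in male SMC (median 120), 66.9 to 138 in female sham (median 82.3) and 79.6 to 162 in female SMC (median 124). Of the 6 sham females, 5 lay at or below 85.0 CPM and of the 6 SMC females, 5 lay at or above 107 CPM, while the remaining sham female, replicate 7, reached 138 CPM. The log2 fold change was 0.53 in males (SE 0.23, interval 0.05 to 1.004, unadjusted p = 0.0322, edgeR FDR 0.393) and 0.45 in females (SE 0.23, interval -0.02 to 0.93, edgeR FDR 0.430). Averaged over the sexes it was 0.49 (SE 0.16, interval 0.15 to 0.83, unadjusted p = 0.00626, edgeR FDR 0.109), a fold of 1.40 and the largest averaged value of the 10. It passed the FDR without female sham replicate 7 (0.57, SE 0.16, edgeR FDR 0.0473) and with the slow fiber score as a covariate (0.61, SE 0.15, edgeR FDR 0.0246). The value in males was 0.31 (edgeR FDR 0.649) without male SMC replicate 14, whose 242 CPM was the highest of the series.

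Sirt3 encodes the main mitochondrial deacetylase. Its level was 5.26 to 12.7 CPM in male sham (median 10.2), 7.85 to 13.02 in male SMC (median 11.3), 6.63 to 10.3 in female sham (median 8.88) and 6.95 to 11.2 in female SMC (median 7.73). The 4 groups covered much the same range. Its log2 fold change was 0.10 in males (SE 0.17, edgeR FDR 0.883) and -0.05 in females (SE 0.17, edgeR FDR 0.938).

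The genes around these regulators were read from 5 lists. Of 27 partners of PGC-1 and ERR, such as coactivators, corepressors and CREB coactivators, 0 were called in males (0% of all genes), 0 in females (0.341%) and 1 rose in the average (2.36%). This was Ncor1, a nuclear receptor corepressor, at 202 ± 20.6 CPM (SD, n = 6) in female sham against 236 ± 12.1 in female SMC, and at 206 ± 13.7 in male sham against 226 ± 7.34 in male SMC. Its averaged log2 fold change was 0.18 (SE 0.05, edgeR FDR 0.0480), and it was called in 8 of 31 other fits. The list's median averaged log2 fold change was 0.01.

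Of 16 AMPK subunits and regulators, 1 fell in the average, where 2.36% of all genes were called, and 0 were called in males (0%) or females (0.341%). This was Cab39, which encodes MO25α, the scaffold of the AMPK kinase LKB1. It was at 187 ± 10.5 CPM in male sham and 151 ± 21.8 in male SMC, and at 161 ± 23.5 in female sham and 135 ± 5.58 in female SMC. The averaged log2 fold change was -0.28 (SE 0.07, edgeR FDR 0.0246), and it was called in 30 of 31 other fits. The list's median was 0.01.

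Of 25 reported targets of PGC-1 and ERR, 0 were called in males (0% of all genes), and 2 fell both in females (0.341%) and in the average (2.36%), namely Pdk4, a kinase that restrains pyruvate oxidation, and Ucp3, a mitochondrial carrier of muscle. Ucp3 was at 314 ± 164 CPM in female sham against 143 ± 32.0 with SMC, and its log2 value in females was -1.13 (SE 0.25, edgeR FDR 0.0496). In males it was at 237 ± 63.9 CPM in sham against 185 ± 45.8 with SMC, or -0.35 on the log2 scale (edgeR FDR 0.655). Pdk4 had a log2 fold change of -0.82 in the average (SE 0.18, edgeR FDR 0.0166), and Ucp3 of -0.74 (SE 0.18, edgeR FDR 0.0261). Each call in females was made in 9 of 32 other fits, while the averaged calls were made in 31 of 31 for Pdk4 and 30 of 31 for Ucp3. The difference between the sexes did not pass for either gene (edgeR FDR 0.955 for Pdk4 and 0.946 for Ucp3). The list's median averaged log2 fold change was 0.00, with 12 of its 25 genes higher. In the same SMC females 7 of 7 tested adipocyte markers had a log2 fold change above 0 (median 0.79, 0 called), and 6 of 7 fibroblast and tendon markers one below 0 (median -0.34, 0 called, 3 at an unadjusted p under 0.05). Summed fibroblast and tendon markers lay between 423 and 1301 CPM in female sham and between 514 and 730 in female SMC, and summed adipocyte markers between 72.1 and 166 and between 86.2 and 298. The part of these cells in the falls of Pdk4 and Ucp3 was not tested.

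Neither other list held a call in males, in females or in the average. Among 20 genes that transcribe and copy mitochondrial DNA, the medians were -0.01 in males and -0.04 in females. Slirp, which stabilizes mitochondrial messenger RNA, had a log2 fold change of -0.28 in males (unadjusted p = 0.00727, edgeR FDR 0.270), and Mgme1, a mitochondrial exonuclease, of 0.23 in males (edgeR FDR 0.457) and 0.16 in females (edgeR FDR 0.596). Polg, the mitochondrial DNA polymerase, had -0.16 in females (unadjusted p = 0.0373, edgeR FDR 0.356). Among 11 other sirtuins and genes of NAD salvage, the medians were -0.01 in males and 0.00 in females. The lowest p-values there were those of Nmrk2 (0.74, edgeR FDR 0.647) and Nmrk1 (0.17, edgeR FDR 0.697) in males, and of Sirt2 (0.15, edgeR FDR 0.437) and Sirt7 (-0.19, edgeR FDR 0.544) in females.

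How much a regulator varied between mice of the same group differed widely over the 10. The SD of log2 CPM within groups was 0.12 for Nrf1, below the median of 0.17 over 9251 genes at 5 CPM or more, and near that median for Prkaa2 (0.18) and Tfam (0.19). It was 0.24 for Esrra, 0.33 for Sirt3, 0.43 for Prkag3, 0.60 for Ppargc1a, 0.63 for Perm1, 0.76 for Ppargc1b and 1.06 for Esrrg. Ranked among those genes, Nrf1 stood at the 14.6th percentile and Ppargc1a, Perm1, Ppargc1b and Esrrg above the 97th, at 97.1, 97.3, 98.4 and 99.3. Esrrg and the 3 coactivators thus spread more than Nrf1 and Tfam. Without male sham replicate 4 and female sham replicate 7 the SD was 0.63 for Esrrg, 0.51 for Ppargc1b, 0.41 for Perm1 and 0.57 for Ppargc1a, against 0.20 for Tfam and 0.17 for Esrra.

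**Figure D3:**
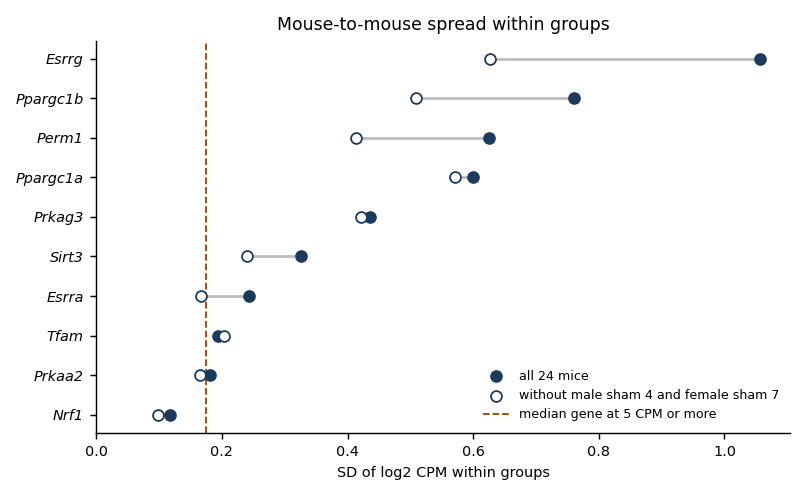
SD of log2 CPM within groups (horizontal axis) for the 10 regulators, over all 24 mice (filled) and without male sham replicate 4 and female sham replicate 7 (open). The dashed line is the median of genes at 5 CPM or more (0.17), and Nrf1 (0.12) is the only regulator left of it over all 24 mice.

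The regulators were next set against the slow fiber score. Within groups and over the 22 mice other than the low pair, 5 of the 10 regulators had an adjusted p under 0.05 in a two-sided permutation test, against 6.5% of the 16398 genes outside the score. Perm1 (r = 0.84, adjusted permutation p = 0.00126), Sirt3 (r = 0.86, 0.00183), Esrrg (r = 0.77, 0.0136) and Esrra (r = 0.72, 0.0136) were higher in mice with more slow fiber transcripts, and Prkag3 was lower (r = -0.74, 0.0109). Spearman's rho was 0.82 for Perm1 (adjusted permutation p = 0.00195), 0.86 for Sirt3 (0.00349) and -0.81 for Prkag3 (0.00918). The rank correlations of Esrrg (0.67, adjusted permutation p = 0.0630) and Esrra (0.66, 0.0533) did not pass. Ppargc1b (r = 0.58, adjusted permutation p = 0.0733), Ppargc1a (r = 0.33, 0.408) and Nrf1 (r = -0.58, 0.0675) did not pass either, nor did Tfam (r = 0.13, 0.778) and Prkaa2 (r = -0.17, 0.724).

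Over all 24 mice 6 of the 10 passed the same test, against 17.6% of genes. Pearson's r was then 0.92 for Esrrg, 0.84 for Ppargc1b, 0.83 for Sirt3, 0.83 for Perm1, 0.72 for Esrra and 0.49 for Ppargc1a, with adjusted permutation p-values of 0.000951, 0.00283, 0.000722, 0.000722, 0.00425 and 0.0210. Ppargc1a and Ppargc1b thus passed only with male sham replicate 4 and female sham replicate 7 included, the pair farthest from the median score. Without the pair r was 0.33 for Ppargc1a and 0.58 for Ppargc1b. Over all 24 mice rho was 0.53 for Ppargc1a (adjusted permutation p = 0.0710) and 0.67 for Ppargc1b (0.0121). Prkag3 had r = -0.48 over all 24 (adjusted permutation p = 0.119) and rho = -0.56 (0.0335). Its r was -0.35 (0.254) with library totals in place of TMM factors, under which r was 0.18 for Nrf1 against -0.40 with them. The slow fiber genes themselves had median log2 fold changes with SMC of 0.51 in males and 0.61 in females, with 0 of 10 called in either sex. Each sham group held 1 of the low libraries, and their part in these medians was not tested. Apart from them, scores ran from 6.34 to 7.43 in male sham against 5.42 to 7.55 in male SMC. In females they ran from 6.62 to 7.64 in sham against 6.47 to 8.08 in SMC.

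**Figure D4:**
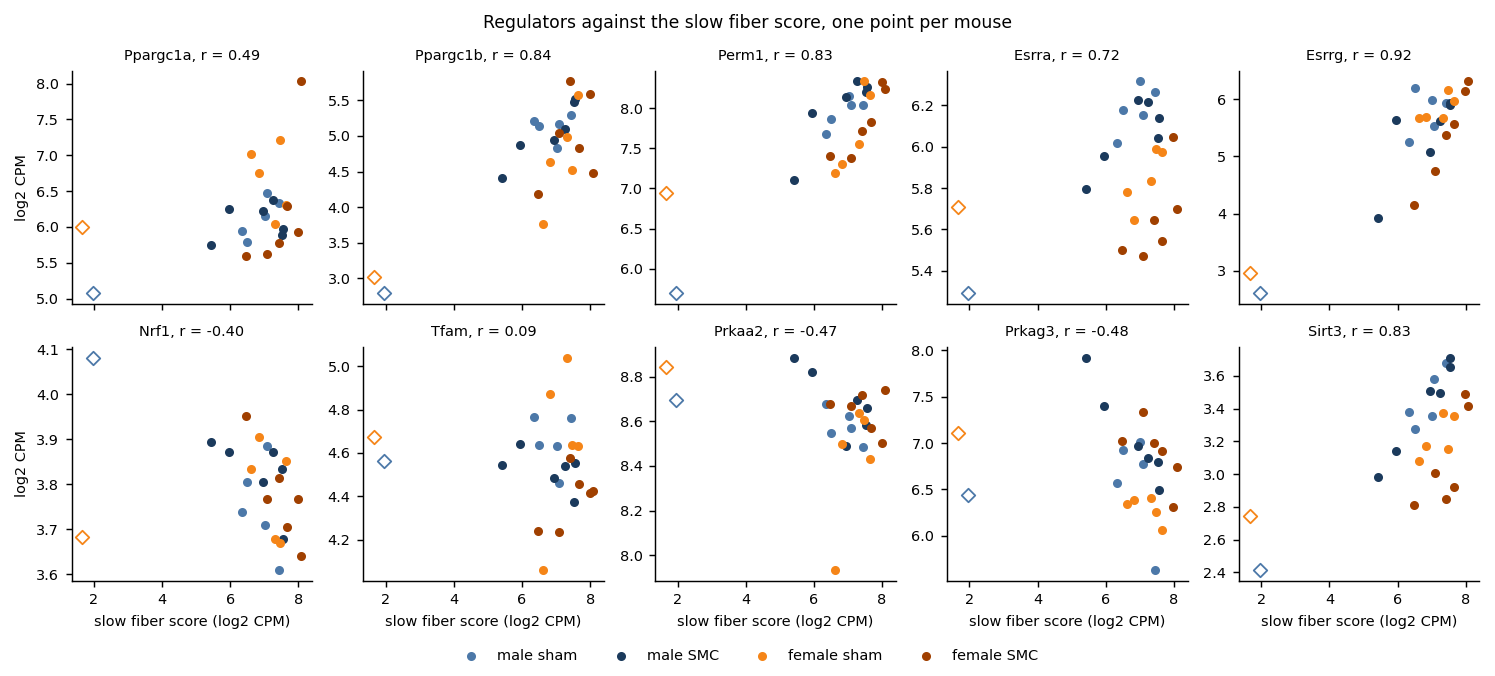
Log2 CPM of the 10 regulators (vertical axes) against the slow fiber score (horizontal axis, mean log2 CPM of 10 slow fiber genes), with 1 point per mouse colored by group. The r in each title is within groups over all 24 mice, and open diamonds are male sham replicate 4 and female sham replicate 7, which lie at scores of 1.96 and 1.67. Esrrg (0.92) rises along the score. Prkag3 (-0.48), Prkaa2 (-0.47) and Nrf1 (-0.40) have a negative r, none with an adjusted permutation p under 0.05.

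The same genes went together in pairs. Of 45 pairs, described here with no test, Perm1 and Esrra had the highest correlation within groups, with r = 0.93 and rho = 0.91 over 24 mice and r = 0.84 over 22. Perm1 and Esrrg had r = 0.87 over 24 and 0.80 over 22, and Perm1 and Sirt3 0.85 and 0.69. Esrra and Esrrg had 0.76 and 0.66. Ppargc1b had r between 0.70 and 0.78 with Perm1, Esrra, Esrrg and Sirt3 over 24 mice, and between 0.42 and 0.48 over 22. Ppargc1a and Ppargc1b, both PGC-1 genes, had 0.13 over 24 and -0.35 over 22. Prkag3 went against Sirt3, with -0.57 over 24 and -0.77 over 22, and against Perm1, with -0.40 and -0.61. Nrf1 also went against Perm1 (-0.61 over 24 and -0.45 over 22), Esrra (-0.61 and -0.37) and Sirt3 (-0.59 and -0.48). All points of a pair share a library and its depth. Perm1, Esrra, Esrrg and Sirt3 thus formed a group that was high or low together in a mouse. Ppargc1a had r of 0.55 with Perm1, 0.42 with Esrra, 0.59 with Esrrg and 0.50 with Sirt3 over 24 mice, and of 0.41, 0.20, 0.48 and 0.32 over 22.

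**Figure D5:**
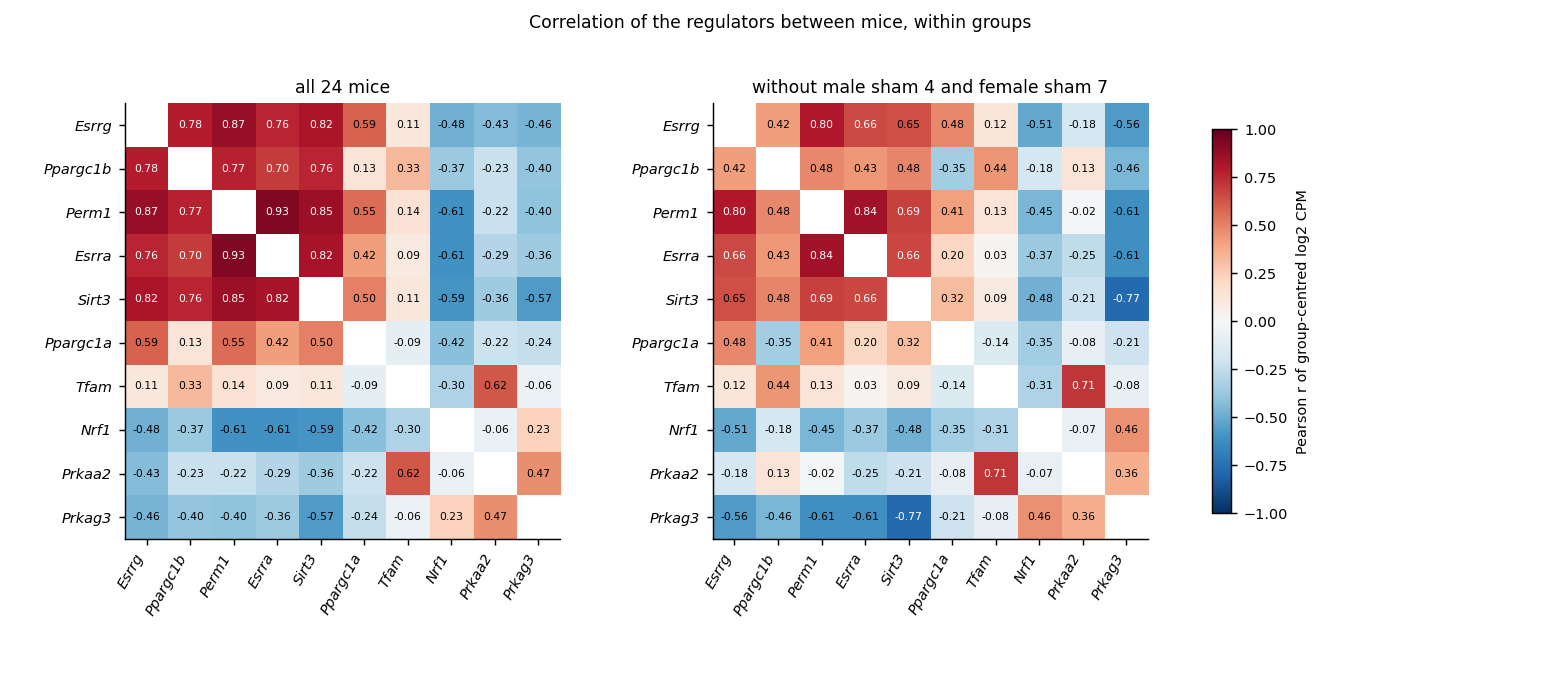
Pearson r of group-centered log2 CPM for all 45 pairs of the 10 regulators, over all 24 mice (left) and over the 22 without male sham replicate 4 and female sham replicate 7 (right). Red cells are positive and blue cells negative. The block of Esrrg, Perm1, Esrra and Sirt3 is positive in both panels, from 0.76 to 0.93 on the left and from 0.65 to 0.84 on the right.

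By the same measure, the 3 genes most like each regulator among 13193 others at 1 CPM or more were also found, as a description over 24 mice. Perm1 was most like Mrpl45, Wfs1 and Fh1 (r from 0.94 to 0.95), which encode a mitochondrial ribosomal protein, an endoplasmic reticulum protein and fumarate hydratase. Esrra was most like Afg1l, Cox10, an enzyme of heme a synthesis for complex IV, and again Mrpl45 (r from 0.93 to 0.94). Sirt3 was most like Ndufab1, the mitochondrial acyl carrier protein, with Clip4 and Gm49708 at the same r of 0.94. Esrrg was most like Gm5532, Inpp4b and Klhl34 (r from 0.97 to 0.98), and Ppargc1b most like Pgpep1 at 0.96, Rbfox2 and 2310016D03Rik. Without male sham replicate 4 and female sham replicate 7, r was from 0.92 to 0.94 for the genes like Esrrg. For those like Ppargc1b it was then 0.92, 0.89 and 0.81, in the same order.

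The other regulators had different neighbors. Ppargc1a was most like Tpm4, Rhoa and Cpm, with r from 0.76 to 0.80, and the value for Tpm4 was 0.80 without female SMC replicate 24. Tfam was most like Eif2s1, Serbp1 and Cfl2 (r from 0.77 to 0.79), of which Eif2s1 encodes a subunit of a translation initiation factor. Nrf1 was most like Zfp646, Arhgap17 and 4933439C10Rik (r from 0.80 to 0.85). Prkaa2 was most like Ulk2, a kinase of autophagy, at 0.95, with Zfp91 and 5730455P16Rik at 0.94. Prkag3 was most like Cntnap2, Fam69a and Pgm1 (r from 0.82 to 0.84), of which Pgm1 encodes phosphoglucomutase, an enzyme of glycogen metabolism.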

How the data were processed

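Gastrocnemius RNA of 24 mice (6 per group) was depleted of ribosomal RNA and sequenced in directional libraries. The authors deposited raw counts per Ensembl gene, and the submitters' processing notes name cutadapt 1.16, STAR 2.7.9a, featureCounts 1.6, DESeq2 1.34.0 and the build GRCm39, while the strand setting is not given in the sources used here. Of 55416 genes, 52083 had a symbol. Groups came from the labels, and no label says that replicates share a litter or cage. filterByExpr kept 16408 genes, which were TMM normalized and fitted with 4 group means by edgeR 4.0.16 (R 4.3.3), two-sided, with Benjamini-Hochberg FDR under 0.05, and the fit was tested on simulated data. Log2 CPM used a prior count of 2, and RPKM the exon length of GENCODE M21. Correlations were permuted 100000 times within groups and adjusted over all tested genes, where the planned adjustment covered only the 10 regulators. Alternatives were DESeq2 1.42.0, limma 3.58.1 voom with sample weights, no TMM factors, at least 10 counts in every library and no filter. Others were 1 sex alone, the slow fiber score as a covariate, each library left out in turn, and both low libraries left out together. The pair correlations without both libraries, the called list genes under every alternative, and the most similar genes without female SMC replicate 24 were added after seeing the data. Named genes were the 10 regulators, every called gene of a list or else the 2 lowest p-values per sex, and the 3 genes most like each regulator. The regulators and lists were chosen with earlier results of these data known. Intervals cover counting error and the spread between mice.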

Additional observations from a re-analysis of the deposited data

Results flagged for a closer look

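Of 40 groups of 6 values (10 regulators in 4 groups), 9 held a value far from the rest by Dixon's criterion at the 95% level. Chance gives about 1 in 20, or 2 of 40, for independent groups. The 40 groups share the same 24 mice, so that number cannot be weighed against the 9 values found. Of these, 5 were low values of male sham replicate 4, at 6.83 CPM for Ppargc1b (others 28.3 to 39.2), 51.6 for Perm1 (204 to 284), 39.1 for Esrra (64.8 to 79.6), 6.0 for Esrrg (37.8 to 73.1) and 5.26 for Sirt3 (9.60 to 12.7). In female sham replicate 7, Esrrg was low at 7.70 CPM (others 50.6 to 71.4) and Prkag3 high at 138 CPM (others 66.9 to 85.0). In male SMC replicate 14, Perm1 was low at 138 CPM (others 246 to 323), and this mouse had the lowest slow fiber score of its group (5.42). In female SMC replicate 24, Ppargc1a was high at 262 CPM (others 48.1 to 78.2), with a library of 35895322 counts.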

How the results depend on the processing

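No paired analysis was run, because the labels give no cage or pair that would link mice between groups. In some experiments of the paper, mice of both treatments were housed in pairs, and whether these mice were is not given. Of the log2 fold changes of the 10 regulators, 339 kept their direction and call under the other settings, 29 changed sign and 2 gained a call, and with 1 library left out 1111 kept both, 86 changed sign and 3 gained a call. The cause of these changes was not tested. The number of regulators called in the average went from 0 to 1 without TMM factors (Tfam) and with the slow fiber covariate (Prkag3). It ranged from 0 to 1 with 1 library left out (Tfam without female sham replicate 8, Prkag3 without female sham replicate 7), as did the number between the sham sexes (Esrra without male sham replicate 4). The averaged FDR of edgeR and the alternatives ranged from 0.0138 to 0.261 for Tfam and from 0.0246 to 0.179 for Prkag3.

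Without TMM factors, log2 fold changes became, for Ppargc1a -0.075, Nrf1 -0.10, Prkaa2 -0.033 and Sirt3 -0.037 in males, Nrf1 -0.14 in females, Nrf1 -0.12, Prkaa2 -0.0038 and Sirt3 -0.12 in the average and Tfam 0.0036 between the sham sexes. That scaling moved the median of all genes to -0.13 in males and -0.15 in females. With the slow fiber covariate they became, for Ppargc1a -0.017 in males, Perm1 -0.17 in females, Sirt3 -0.12 in the average, Esrrg 0.31 and Prkag3 -0.078 in the sex difference and Esrrg 0.071 between the sham sexes. Without both low libraries they became, for Ppargc1a -0.076, Ppargc1b -0.047 and Sirt3 -0.033 in males, Nrf1 -0.0081 in females, Sirt3 -0.075 in the average, Perm1 -0.00077 and Prkag3 -0.15 in the sex difference and Nrf1 -0.029 between the sham sexes. With voom they became, for Nrf1 -0.0049 in females, Sirt3 -0.034 in the average, Esrrg 0.090 and Prkag3 -0.19 in the sex difference and Nrf1 -0.0052 between the sham sexes. With no filter the value became, for Nrf1 -0.012 in the sex difference.

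With 1 library left out, values that changed sign ranged in males for Ppargc1a from -0.076 to 0.17, Ppargc1b from -0.047 to 0.27, Esrra from -0.13 to 0.050, Esrrg from -0.34 to 0.078, Nrf1 from -0.025 to 0.065 and Sirt3 from -0.032 to 0.18. In females they ranged for Ppargc1a from -0.77 to 0.059, Esrrg from -0.28 to 0.11, Nrf1 from -0.028 to 0.035 and Sirt3 from -0.14 to 0.0056. In the average they ranged for Ppargc1a from -0.35 to 0.059, Esrrg from -0.20 to 0.0082, Nrf1 from -0.012 to 0.037 and Sirt3 from -0.041 to 0.064. In the sex difference they ranged for Perm1 from -0.11 to 0.24, Esrrg from -0.28 to 0.17, Nrf1 from -0.027 to 0.056, Prkaa2 from -0.12 to 0.055 and Prkag3 from -0.15 to 0.17. Between the sham sexes they ranged for Perm1 from -0.017 to 0.30, Esrrg from -0.25 to 0.20, Nrf1 from -0.011 to 0.080, Tfam from -0.14 to 0.047 and Prkaa2 from -0.0057 to 0.17.

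Correlations with the slow fiber score that changed without both low libraries were 0.33 for Ppargc1a, 0.58 for Ppargc1b and -0.74 for Prkag3, and that of Nrf1 was 0.18 without TMM factors. Over all genes, DESeq2 called 133 in males, 268 in females, 778 in the average, 1 in the sex difference and 575 between the sham sexes, in place of 0, 56, 388, 0 and 324. Without TMM factors 215 were called in females, 1861 in the average and 179 between the sham sexes. With the slow fiber covariate these counts were 187, 733 and 692, with 13 in males. Voom called 93 in males and 16 in females, the females alone gave 14, no filter gave 189 in the average, and leaving out both low libraries gave 155 in females and 511 between the sham sexes. With 1 library left out the counts ranged from 0 to 78 in males, from 0 to 147 in females, from 236 to 501 in the average, from 0 to 1 in the sex difference and from 187 to 487 between the sham sexes.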

Other observations

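Female sham replicate 8 had the lowest Tfam (16.6 CPM) and the lowest Prkaa2 (244 CPM) of all 24 mice, while its Ppargc1a (129 CPM) was the third highest and its slow fiber score was 6.62. Its library held 23662174 counts. Tfam and Prkaa2 had r = 0.62 and rho = 0.30 within groups over 24 mice. Their r was 0.71 without male sham replicate 4 and female sham replicate 7, and 0.09 without the 2 mice farthest from the median of Tfam. Leaving out mice by their Tfam value also narrows the range of Tfam, so what the relation rested on was not settled. This pair was picked after its values were seen.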
